A study of Mus musculus with 71 samples.

Results

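The 10 genes described here encode proteins of the Bcl2 family, which decide at the mitochondrion whether a cell lives or dies. They were chosen by symbol, as Bcl2, Bcl2l1, Mcl1, Bcl2a1b, Bcl2l11, Bbc3, Pmaip1, Bid, Bax and Bak1, and all 10 were found among 25579 genes measured in 31 samples of pro-B cells and progenitors and among 24420 gene names measured in 17 samples of early lymphoid cells. The values are mRNA levels in TPM, a unit of transcript abundance that allows for transcript length and for the depth of each sample. No level entered the rule that chose the genes, but earlier results of these data were known when they were chosen. A difference was called when the adjusted p of limma, a linear model fitted across all genes on log2(TPM + 0.1) with Benjamini-Hochberg adjustment, was under 0.05.

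The study asked what the single domains of Pax5, the transcription factor that commits lymphoid progenitors to the B cell lineage, contribute to its activity. RNA was sequenced from ex vivo sorted bone marrow cells of C57BL/6 mice carrying the alleles Pax5 +/+ (5 samples) or, with 2 samples for each, homozygous deletion of the octapeptide (∆OP/∆OP), of the partial homeodomain (∆HD/∆HD) or of both (∆OP,HD/∆OP,HD), and deletion of the C-terminal regulatory domains ∆CRD1, ∆CRD2 or ∆CRD1,2, each in the homozygous state or over a Pax5 null allele (written "-"). Vav-Cre Pax5 fl/fl progenitors (2 samples), in which Cre driven by the Vav gene removes Pax5 throughout the hematopoietic system, stood for cells without Pax5. A second experiment compared Vav-Cre Pax5 fl/+ pro-B cells, which keep 1 intact allele, with Vav-Cre Pax5 fl/fl progenitors and with Vav-Cre Pax5 Prd/fl progenitors, whose remaining allele codes for the paired (DNA-binding) domain alone, at 2 samples each. The third set held wild-type lymphoid-primed multipotent progenitors (LMPP) of the bone marrow and the CD4-CD8- thymocyte stages DN1, DN2a, DN2b, DN3a and DN3b, with 2 or 3 samples each, and 2 DN3a samples labelled Rag2-/-, which lack V(D)J recombination and hence a pre-T cell receptor. The ∆OP allele was made in embryonic stem cells and the other domain deletions in zygotes. In DN1, DN2a and DN2b 2 of the 3 samples carry the same replicate number and were counted as separate samples, so that their n of 3 is uncertain.

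The gates differed between genotypes. Pax5 +/+, ∆CRD1/-, ∆CRD1/∆CRD1, ∆CRD2 and central domain mutant pro-B cells were taken as B220+Kit+ cells lacking CD2, IgM and IgD. The ∆CRD1,2 genotypes, the fl/fl and the Prd/fl cells were taken as lineage-negative Ly6D+ B220+ cells with high Kit, by another set of markers. In every contrast between these genotypes and Pax5 +/+ or fl/+, gate and genotype cannot be told apart. The 4 lymphoid progenitor markers summed to 164 to 334 TPM in Pax5 +/+ and 832 to 975 TPM in fl/fl samples. Among them Flt3, a receptor of early progenitors, averaged 14.9 TPM in Pax5 +/+ and 464 TPM in fl/fl cells. Il7r averaged 172 and 377 TPM, Cd34 1.13 and 6.74 TPM, and Kit, which went the other way, 61.7 and 56.2 TPM. The markers of plasmacytoid dendritic cells summed to 121 to 212 TPM in Pax5 +/+ and 492 to 794 TPM in fl/fl samples, and the pro-B cell markers to 15902 to 20350 TPM and 7998 to 9572 TPM. Of the pro-B cell markers Dntt went the other way, averaging 2893 TPM in Pax5 +/+ and 4153 TPM in fl/fl cells. The plasmacytoid dendritic cell markers of the second experiment summed to 173 to 175 TPM in fl/+, 311 to 381 TPM in fl/fl and 315 to 372 TPM in Prd/fl samples. The 7 T lineage markers summed to 64.1 to 87.7 TPM in Pax5 +/+ and 157 to 185 TPM in fl/fl samples, most of it Tcf7, which averaged 43.8 and 119.7 TPM, and Gata3 averaged 0.205 and 2.45 TPM. Cd3e, Cd3g, Bcl11b and Ptcra had group means under 1 TPM in every pro-B cell and progenitor group. The part of these cell type markers in the results was not tested. The summed level of 7 granulocyte genes varied among samples of 1 genotype, from 459 to 5003 TPM in Pax5 +/+ and at 840 and 10953 TPM in ∆CRD2/-; its part in the results was not tested. In the thymocytes the T lineage markers rose from a summed 31.6 TPM in LMPP to 15936 TPM in DN3a cells. Rag2 mRNA was 48.7 and 75.5 TPM in wild-type DN3a cells and 35.5 and 42.2 TPM in the samples labelled Rag2-/-, a level summed over the whole gene that does not check the deletion. In the same way Pax5 mRNA was 342 to 524 TPM in Pax5 +/+ and 1609 to 1697 TPM in fl/fl samples. In the second experiment it was 618 to 620 TPM in fl/+ and 1129 to 1301 TPM in fl/fl samples. Reads recovered from the TPM values numbered 10018678 to 43784791 per sample in the pro-B and progenitor sets. The depth of the lymphoid set is unknown.

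The proteins fall into 3 classes. Pro-survival members (Bcl2, Bcl-xL from Bcl2l1, Mcl1 and A1 from Bcl2a1b) hold their partners in check on the mitochondrial outer membrane. BH3-only members (Bim from Bcl2l11, Puma from Bbc3, Noxa from Pmaip1, and Bid) are the triggers that bind the pro-survival proteins. The effectors Bax and Bak1 form pores that release cytochrome c and start the caspase cascade. In lymphocyte progenitors signals from the IL-7 receptor and, later, from the pre-antigen receptors are known to keep the balance on the side of survival. Splice forms of 1 gene with opposite action, such as the long and short forms of Bcl2l1 mRNA, were counted together here.

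The promoter of Bcl2l1 is shown because this gene changed most across the Pax5 genotypes, and that of Bbc3 because it was the only one of 14 windows, covering 9 of the 10 genes, that held the letters GCGTGAC, a core of the sequence Pax5 recognises, on either strand. Both are the 250 bases before a RefSeq transcript start in GRCm38.p6, and the capitals in Bbc3 mark GCGTGAC on the opposite strand.
Bcl2l1, chr2:152831729-152831978, minus strand: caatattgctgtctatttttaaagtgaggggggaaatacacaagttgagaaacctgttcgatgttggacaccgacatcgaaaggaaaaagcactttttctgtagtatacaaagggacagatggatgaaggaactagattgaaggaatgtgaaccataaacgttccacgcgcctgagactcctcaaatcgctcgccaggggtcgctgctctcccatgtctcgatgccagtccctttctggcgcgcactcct
Bbc3, chr7:16309333-16309582, plus strand: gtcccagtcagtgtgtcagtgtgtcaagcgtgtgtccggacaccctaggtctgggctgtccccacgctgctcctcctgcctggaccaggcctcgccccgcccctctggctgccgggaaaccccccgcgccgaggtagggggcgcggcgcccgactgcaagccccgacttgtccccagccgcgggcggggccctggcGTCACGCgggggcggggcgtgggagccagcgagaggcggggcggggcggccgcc
GCGTGAC stood in 584 of all 32851 promoter windows of this length, or 1.78%, and none of the 3 windows of Bcl2l1 held it. TTCNNNGAA, the motif of the STAT5 proteins that act below the IL-7 receptor, stood in 7.02% of windows and in 0 of the 14. A match or its absence in these letters is a description of the window alone.

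In the GRCm38 annotation Bcl2l1 lies on chromosome 2 (chr2:152780668-152831728, minus strand), Bcl2 on chromosome 1 (chr1:106538178-106714274, minus), Mcl1 on chromosome 3 (chr3:95658788-95663176, plus), Bcl2l11 on chromosome 2 (chr2:128126038-128162547, plus), Bbc3 on chromosome 7 (chr7:16308393-16318205, plus), Bid on chromosome 6 (chr6:120891930-120916853, minus), Bax on chromosome 7 (chr7:45461697-45466898, minus) and Bak1 on chromosome 17 (chr17:27019810-27029009, minus). Exons of Bcl2, Bid and Bak1 overlap a gene on the opposite strand, and whether the counting used strand was not stated, so reads of the partners could enter these values. Exons of Bax overlap Gm45808 and those of Bcl2a1b Gm29094 on the same strand. Bcl2a1b (chr9:89199209-89207827, plus) has near-identical copies, and its values are uncertain.

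Across the 25 samples of the pro-B cell experiment, Bcl2l1 was the member that varied most, leaving aside Bcl2a1b, which was listed at 0 in some samples. It ran from 16.8 to 174 TPM, a span of 10.3-fold. Pmaip1, at 0.335 to 2.97 TPM, spanned 8.87-fold, Bcl2 5.92-fold, Bbc3 4.38-fold, Mcl1 2.15-fold, Bak1 1.79-fold, Bcl2l11 1.54-fold, Bid 1.47-fold and Bax 1.39-fold. Of 181 tests of members over 19 contrasts of pro-B cells and progenitors, in which 0% to 40.7% of all genes tested were called, 15 were called, 4 higher and 11 lower, and 9 of the 11 lower calls were of Bcl2l1. All contrasts with Pax5 +/+ shared their control samples. In these bulk samples a lower level in every cell and a smaller share of cells that express the gene cannot be told apart.

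Bcl2l1, the gene of Bcl-xL, had lower values in the C-terminal deletions over the null allele and in fl/fl progenitors. The 5 Pax5 +/+ samples had 142.57, 129.19, 137.69, 110.53 and 119.58 TPM. The ∆CRD2/- samples had 89.90 and 102.45 TPM, the ∆CRD1/- samples 57.54 and 65.02, the ∆CRD1,2/- samples 16.84 and 23.20, and the Vav-Cre Pax5 fl/fl progenitors 23.28 and 19.57. None of these groups overlapped with Pax5 +/+, and the ∆CRD1,2/- and fl/fl samples overlapped with each other. Deletions over the null allele leave a single Pax5 allele, and this experiment had no Pax5 +/- samples. Domain loss and allele dose therefore cannot be told apart in their contrasts with Pax5 +/+. The fl/+ cells of the second experiment, with a single intact allele, had 97.86 and 98.20 TPM.

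In ∆CRD1/- cells Bcl2l1 was 2.02-fold lower than in Pax5 +/+ cells of the same gate (log2 difference -1.01, SE 0.18, adjusted p = 0.00563, limma, n = 2 and 2). The read length term of these fits sets the 2 ∆CRD1/- samples against the 2 Pax5 +/+ samples of 100 nt reads, with 137.69 and 110.53 TPM, and the other 3 Pax5 +/+ samples enter only the estimate of spread. Without that term the difference was -1.06 (adjusted p = 0.000645). It was the only member called of 9 tested, where 8.51% of all genes tested were called. The granulocyte genes summed to 224 and 351 TPM in these ∆CRD1/- samples, below all 5 Pax5 +/+ samples, and their part was not tested. Without Pax5 +/+ replicate 3 or without ∆CRD1/- replicate 1 the call was lost, with an adjusted p of up to 0.0734. In ∆CRD1,2/- cells Bcl2l1 was 6.21-fold lower (log2 difference -2.64, SE 0.18, adjusted p = 5.6e-06), again the only called member of 9, against 20.2% of all genes. The direct contrast of ∆CRD1,2/- with ∆CRD1/- gave a further 3.08-fold decrease (log2 difference -1.62, SE 0.18, adjusted p = 0.00142), the only call among the members where 2.17% of all genes were called. The ∆CRD1,2/- cells differ from ∆CRD1/- cells in gate as well as in allele.

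In fl/fl progenitors Bcl2l1 was 6.07-fold lower than in Pax5 +/+ cells (log2 difference -2.60, SE 0.17, adjusted p = 1.01e-06), and 3 of 9 members were called against 31.7% of all genes, a share near that of the background. The fl/fl and ∆CRD1,2/- levels differed by a log2 value of 0.03 (95% interval -0.51 to 0.58, adjusted p = 0.977), in a contrast in which 2.02% of all genes and 0 members were called by limma and by edgeR, 2 members at an unadjusted p under 0.05 and 1 member, Bcl2, by DESeq2. The ∆CRD2/- difference from Pax5 +/+ was -0.36 (95% interval -0.76 to 0.04, adjusted p = 0.713). No member was called in ∆CRD2/- by limma, edgeR or DESeq2 or at an unadjusted p under 0.05 (0 of 9), where 0.513% of all genes were. The read length as sequenced was 50 nt in the fl/fl, ∆CRD1/∆CRD1 and 3 of the Pax5 +/+ samples and 100 nt in the others. Each genotype was therefore set against the Pax5 +/+ samples of its own read length. All reads were trimmed to 50 nt before alignment. The read length term thus stands for sets of libraries and for whatever else differed between them.

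**Figure D1:**
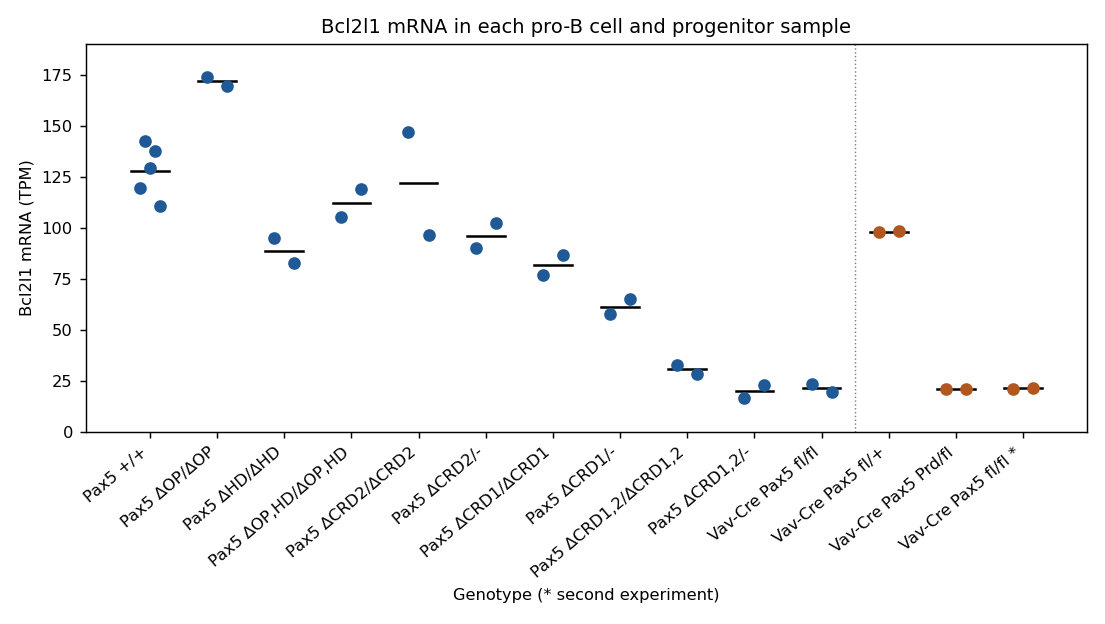
Bcl2l1 mRNA in TPM (vertical axis, linear, from 0) for each genotype (horizontal axis). Each point is 1 sample, the bar is the group mean, and the groups marked with an asterisk right of the dotted line are the second experiment. The Pax5 +/+ samples sit between 110.53 and 142.57 TPM, and the ∆CRD1,2/-, fl/fl and Prd/fl samples between 16.84 and 23.28 TPM.

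The homozygous genotypes took the same order, each with a higher mean than the same deletion over the null allele. Bcl2l1 was 147.07 and 96.48 TPM in ∆CRD2/∆CRD2, 76.63 and 86.77 TPM in ∆CRD1/∆CRD1, and 32.64 and 28.61 TPM in ∆CRD1,2/∆CRD1,2 cells. One ∆CRD2/∆CRD2 sample lay above and the other below all Pax5 +/+ samples, and both other groups lay below them. Against Pax5 +/+ the difference was -0.67 in ∆CRD1/∆CRD1 (SE 0.18, 1.59-fold lower, adjusted p = 0.0394) and -2.01 in ∆CRD1,2/∆CRD1,2 (SE 0.20, 4.03-fold lower, adjusted p = 1.28e-05), and between these genotypes it was -1.34 (SE 0.27, 2.53-fold lower, adjusted p = 0.0267). In ∆CRD1/∆CRD1 2 of 10 members were called, Bcl2l1 and Bcl2, against 8.16% of all genes, in ∆CRD1,2/∆CRD1,2 1 of 10 against 24.6%, and between them 1 of 10 against 1.71%. In ∆CRD2/∆CRD2 the difference of Bcl2l1 was -0.05 (95% interval -0.49 to 0.38), and no member was called by limma, edgeR or DESeq2 or at an unadjusted p under 0.05 (0 of 10), against 0.0956% of all genes. The ∆CRD1/∆CRD1 call of Bcl2l1 was lost in 14 of 28 alternative analyses, including leaving out any 1 sample of ∆CRD1/∆CRD1, with adjusted p-values up to 0.325. The contrast of ∆CRD1,2/∆CRD1,2 with ∆CRD1/∆CRD1 lost its call in 6 of 26, with values up to 0.148. The ∆CRD1,2/∆CRD1,2 cells differ from ∆CRD1/∆CRD1 cells in gate and read length as well as in allele. With the read length term, that contrast sets the difference of each genotype from its own Pax5 +/+ samples against the other. Gate and allele cannot be told apart in it.

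Halving the dose of a mutant allele was tested by setting each deletion over the null allele against its homozygous state. The level of Bcl2l1 over the null allele minus the homozygous level was -0.34 for ∆CRD1 (95% interval -0.93 to 0.25, adjusted p = 0.826), -0.31 for ∆CRD2 (-0.75 to 0.12, adjusted p = 0.798) and -0.63 for ∆CRD1,2 (-1.06 to -0.19, unadjusted p = 0.0083, adjusted p = 0.534). The samples of the ∆CRD1 and ∆CRD1,2 pairs did not overlap in TPM, the ∆CRD2 samples did, and none of the 3 differences passed the threshold. The ∆CRD1/- and ∆CRD1/∆CRD1 samples also differ in read length as sequenced. Their fitted difference therefore runs through the Pax5 +/+ samples of each read length, and their TPM values were compared without that term. Of all genes 0% were called for ∆CRD1, 0.272% for ∆CRD2 and 0.228% for ∆CRD1,2. For ∆CRD1 819 genes stood at an unadjusted p under 0.05, none of them a member. By limma, edgeR and DESeq2 0 members were called in the 3 dose contrasts, and Bcl2l1 for ∆CRD1,2 was the 1 member at an unadjusted p under 0.05.

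Among the central domain deletions, ∆OP/∆OP cells had the highest Bcl2l1 of any genotype, with 173.98 and 169.49 TPM, above all 5 Pax5 +/+ samples. The ∆HD/∆HD cells lay below all of them with 94.77 and 82.51 TPM. Cells lacking both domains, at 105.45 and 118.91 TPM, overlapped with Pax5 +/+. Against the 2 Pax5 +/+ samples of matching read length the differences were 0.48 for ∆OP (95% interval 0.17 to 0.78, unadjusted p = 0.0067, adjusted p = 0.130), -0.48 for ∆HD (adjusted p = 0.192) and -0.14 for ∆OP,HD (adjusted p = 0.709). None passed in limma or edgeR, and DESeq2 called Bcl2l1 in ∆OP and in ∆HD. The background was low, with 0.485% of all genes called in ∆OP, 0.639% in ∆HD and 1.22% in ∆OP,HD, and of the 30 tests of members 0 were called and 2, both of Bcl2l1, stood at an unadjusted p under 0.05. The granulocyte genes summed to 3016 and 3287 TPM in ∆OP and to 343 and 1178 TPM in ∆HD, and their part in these values was not tested.

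In order of mean Bcl2l1 the groups ran from ∆OP/∆OP (172 TPM) through Pax5 +/+ (128), ∆CRD2/∆CRD2 (122), ∆OP,HD/∆OP,HD (112), fl/+ (98.0), ∆CRD2/- (96.2), ∆HD/∆HD (88.6), ∆CRD1/∆CRD1 (81.7), ∆CRD1/- (61.3) and ∆CRD1,2/∆CRD1,2 (30.6) to fl/fl, Prd/fl and ∆CRD1,2/- cells, which all averaged 21.4 TPM or less. Neighbours in this order were separated without overlap at ∆OP against Pax5 +/+, at ∆OP,HD against fl/+, and at each step from ∆CRD1/∆CRD1 down to fl/fl. The other neighbours overlapped. Read length and gate differ between some of these groups, and the TPM values were compared here without a term for either.

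The second experiment gave the same range with its own control. Bcl2l1 was 97.86 and 98.20 TPM in Vav-Cre Pax5 fl/+ pro-B cells, 21.00 and 21.65 TPM in fl/fl progenitors and 21.01 and 20.94 TPM in Prd/fl progenitors. It was 4.58-fold lower in fl/fl than in fl/+ cells (log2 difference -2.20, SE 0.082, adjusted p = 2.28e-05), one of 3 calls among 9 members where 39.9% of all genes were called. It was 4.66-fold lower in Prd/fl cells (log2 difference -2.22, SE 0.082, adjusted p = 2.52e-05), one of 2 calls among 9 members against 40.7% of all genes. Prd/fl and fl/fl progenitors differed by -0.02 (95% interval -0.22 to 0.17, adjusted p = 0.893) in a contrast with 1.97% of all genes called. There 0 members were called by limma, 1 (Bcl2l11) by edgeR, 2 (Bcl2l11 and Mcl1) by DESeq2, and the same 2 stood at an unadjusted p under 0.05.

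Bcl2, the founding pro-survival gene, followed Bcl2l1 only in part. Its mean was below that of Pax5 +/+ in the genotypes lacking CRD1, as for Bcl2l1, but above it in fl/fl progenitors. Bcl2 was low in Pax5 +/+ cells, at 4.32, 4.15, 2.97, 4.39 and 4.58 TPM. The ∆CRD1/∆CRD1 samples had 2.04 and 1.98 TPM, the ∆CRD1/- samples 1.95 and 1.58, the ∆CRD1,2/∆CRD1,2 samples 1.92 and 2.05, and the ∆CRD1,2/- samples 3.56 and 1.90. The Vav-Cre Pax5 fl/fl progenitors had 8.49 and 9.38 TPM, above every other sample. The ∆OP,HD/∆OP,HD samples, at 2.25 and 2.33 TPM, lay below all Pax5 +/+ samples, and ∆HD/∆HD, at 2.82 and 3.00 TPM, and ∆OP/∆OP, at 3.56 and 3.40 TPM, overlapped with them. Of the 4 genotypes lacking CRD1, 3 lay below all Pax5 +/+ samples and ∆CRD1,2/- did so in 1 of 2 samples.

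The rise in fl/fl progenitors was 2.03-fold (log2 difference 1.02, SE 0.31, adjusted p = 0.0283). The call was lost without either fl/fl sample and without Pax5 +/+ replicate 1 or 2, with an adjusted p of up to 0.129. In the second experiment Bcl2 was 4.11 and 4.31 TPM in fl/+, 7.10 and 6.22 TPM in fl/fl and 5.60 and 5.52 TPM in Prd/fl cells. The fl/fl difference was 0.65 (SE 0.16, 1.56-fold higher, adjusted p = 0.0191), which was lost without fl/+ replicate 1 or 2 or fl/fl replicate 1. The Prd/fl samples lay between the other groups without overlap, at 0.39 above fl/+ (adjusted p = 0.0924) and -0.25 from fl/fl (adjusted p = 0.422). In ∆CRD1/∆CRD1 cells Bcl2 was 2.11-fold lower than in Pax5 +/+ (log2 difference -1.08, SE 0.30, adjusted p = 0.0438), a call lost in 13 of 28 alternatives. The differences in ∆CRD1/- (-0.998, adjusted p = 0.107) and ∆CRD1,2/∆CRD1,2 (-0.83, adjusted p = 0.0839) did not pass in limma and did pass in edgeR and DESeq2. That of ∆CRD1,2/- was -0.46 (adjusted p = 0.401).

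Mcl1, which codes for a short-lived survival protein that lymphoid progenitors need, was by mean TPM the most abundant pro-survival mRNA in every group but ∆OP/∆OP. Its 5 Pax5 +/+ samples had a lowest value of 135.52, a median of 207.37 and a highest value of 268.00 TPM, and the samples of most mutants fell inside that spread. The ∆CRD1,2/- samples had 135.2 and 124.8 TPM and the fl/fl samples 132.09 and 186.19 TPM. No difference of Mcl1 was called by limma in the first experiment, while edgeR and DESeq2 called it lower in fl/fl progenitors. In the second experiment, where the fl/+ samples had 161.10 and 165.50 TPM, it was 1.29-fold lower in fl/fl progenitors, with 119.07 and 134.59 TPM (log2 difference -0.37, SE 0.085, adjusted p = 0.0154). That call was lost without either fl/+ sample or fl/fl replicate 1. The Prd/fl samples, with 170.75 and 163.14 TPM, overlapped with fl/+. Bcl2a1b, a gene of the A1 survival protein, lay between 0 and 1.17 TPM over the 31 samples, passed the filter on low values only in the fits of the central domain and homozygous genotypes, and was called in neither (lowest adjusted p = 0.517).

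**Figure D2:**
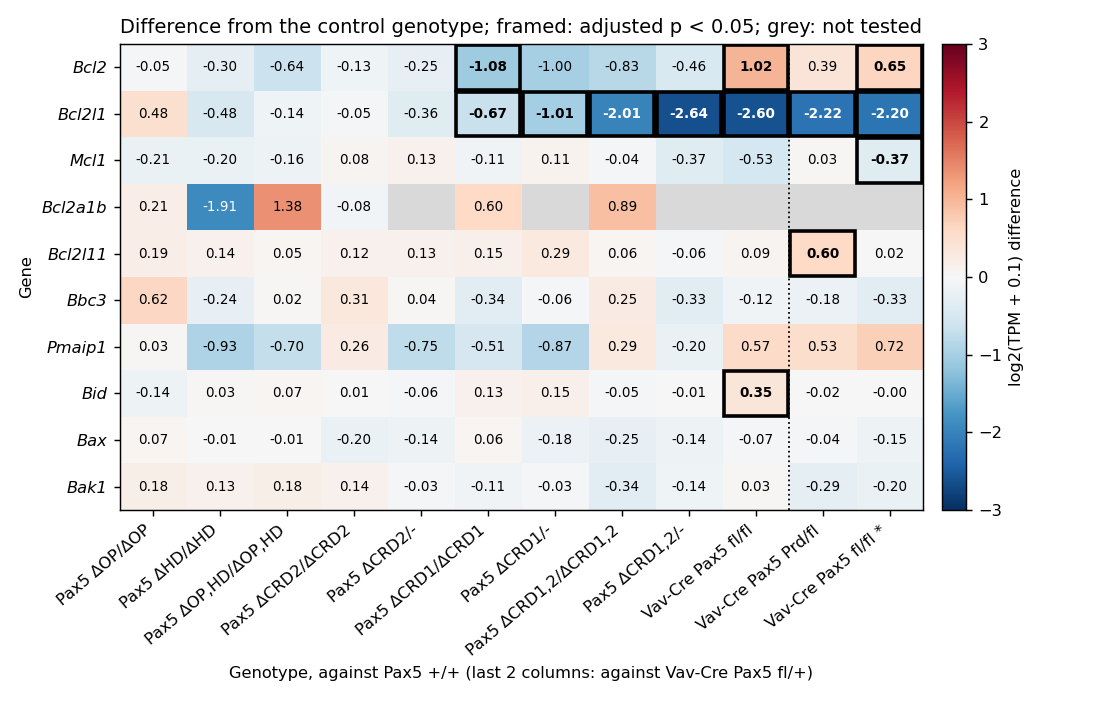
Difference in log2(TPM + 0.1) of each gene (rows) in each genotype (columns) from Pax5 +/+, or from Vav-Cre Pax5 fl/+ in the last 2 columns. Red is higher and blue lower than the control, frames mark an adjusted p under 0.05, and grey cells were not tested. The row of Bcl2l1 holds the lowest values, -2.64 in ∆CRD1,2/- and -2.60 in fl/fl cells, and the row of Bcl2 turns from -1.08 in ∆CRD1/∆CRD1 to 1.02 in fl/fl cells.

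The make-up of the pro-survival pool changed with these genes. Of the summed TPM of Bcl2, Bcl2l1, Mcl1 and Bcl2a1b in Pax5 +/+ cells, Mcl1 made up 60.3%, Bcl2l1 38.4% and Bcl2 1.22% on average. Bcl2l1 made up 53.5% in ∆OP/∆OP, 25.1% in ∆CRD1/-, 15.6% in ∆CRD1,2/∆CRD1,2, 13.1% in ∆CRD1,2/- and 11.6% in fl/fl cells, where Mcl1 reached 83.3% and Bcl2 4.76%. The pool itself summed to 339 ± 58.4 TPM (SD, n = 5) in Pax5 +/+, 153 ± 4.10 TPM (SD, n = 2) in ∆CRD1,2/- and 190.01 ± 36.0 TPM (SD, n = 2) in fl/fl cells. These sums describe mRNA alone, and no test was made on them.

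**Figure D3:**
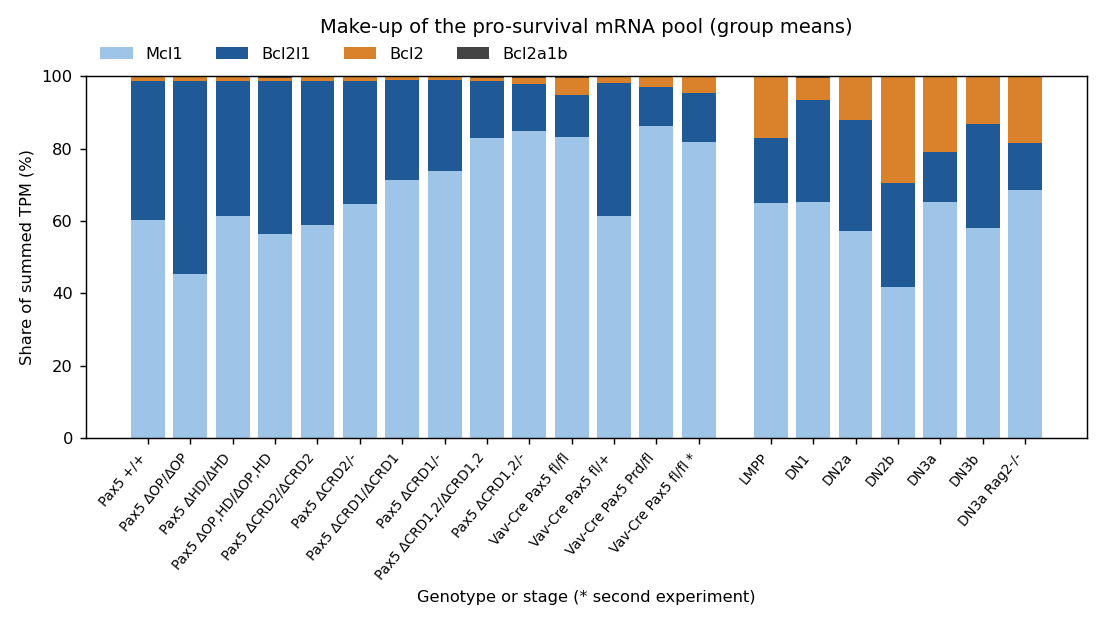
Share of each pro-survival gene in the summed TPM of the 4 genes (vertical axis, percent) for each genotype or thymocyte stage (horizontal axis), as the mean over the samples of a group. Bcl2l1 falls from 38.4% in Pax5 +/+ to 13.1% in ∆CRD1,2/- cells, and Bcl2 is largest in DN2b cells with 29.5%.

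Of the BH3-only triggers, Bcl2l11 (Bim) stayed between 16.7 and 25.7 TPM in all 25 samples of the first experiment and was called in none of its contrasts. In the second experiment it was 19.233 and 19.999 TPM in fl/+, 18.06 and 21.94 TPM in fl/fl and 29.63 and 29.73 TPM in Prd/fl progenitors, which stood above all others. It was 1.51-fold higher in Prd/fl than in fl/+ cells (log2 difference 0.60, SE 0.12, adjusted p = 0.00903), and leaving out either fl/+ sample ended the call. Bid, which links death receptors to the mitochondrion, was 59.99 to 78.39 TPM in Pax5 +/+ cells (median 70.5) and 85.33 and 84.48 TPM in fl/fl progenitors. That 1.28-fold rise (log2 difference 0.35, SE 0.11, adjusted p = 0.0306) was lost in 8 of 24 alternatives, among them edgeR, DESeq2, samples of 1 read length alone (adjusted p = 0.117) and rescaling by the median ratio. In the second experiment the fl/fl samples (78.26 and 77.96 TPM) lay between the fl/+ samples (76.58 and 79.71 TPM), and Bid was not called.

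Bbc3 (Puma) spanned 2.67 to 11.7 TPM over the 25 samples, most of that span within Pax5 +/+ itself (3.94 to 11.7 TPM), and was called in no pro-B cell contrast. Pmaip1 (Noxa) spanned 0.335 to 2.97 TPM, which rest on 12 and 99 recovered reads, and was called in none either. The BH3-only sum given here covers Bcl2l11, Bbc3, Pmaip1 and Bid alone. It was 100.4 ± 3.76 TPM (SD, n = 5) in Pax5 +/+, 98.0 ± 3.22 TPM (n = 2) in ∆CRD1,2/- and 120.4 ± 3.15 TPM (n = 2) in fl/fl cells. In the second experiment it was 109.9 ± 3.26 TPM in fl/fl against 111 ± 4.90 TPM in fl/+ cells (SD, n = 2 each). Further BH3-only genes are not in these sums, among them Bmf, which was called lower in fl/fl progenitors in both experiments. The sums are therefore not the total BH3-only level.

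The effectors were abundant in every genotype. Bax had 211 to 271 TPM in Pax5 +/+ cells and 201.8 and 223.9 TPM in fl/fl progenitors, and Bak1 had 275 to 392 TPM and 356.0 and 344.7 TPM in the same groups. Bak1 was lowest in the ∆CRD1,2 genotypes, at 219.3 and 304.1 TPM over the null allele and between 219.7 and 230.6 TPM in the homozygous state. Neither effector was called in any of the 19 contrasts by limma. DESeq2 called Bak1 in Prd/fl against fl/+ cells, where the samples had 298.6 and 370.2 TPM against 408.7 and 404.9 TPM.

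Other genes of the pathway, in lists that do not hold the 10 members, moved in both directions. Of 14 further Bcl2 family genes, 4 of 63 tests in the homozygous genotypes, 7 of 48 in the hemizygous and fl/fl set and 8 of 24 in the second experiment were called. Of all genes 0% to 24.6% were called in the contrasts of the homozygous genotypes, 0.513% to 31.7% in those of the hemizygous and fl/fl set, and 1.97%, 39.9% and 40.7% in the second experiment. In fl/fl against Pax5 +/+ cells, where 31.7% of all genes were called, 3 of 8 further family genes, 6 of 13 caspase and apoptosome genes, 1 of 7 p53 pathway genes and 3 of 10 genes from the IL-7 receptor to the Bcl2 family were called, and nothing particular to these lists is read from the counts. Bmf, a BH3-only gene, averaged 59.4 TPM in Pax5 +/+ and 23.8 TPM in fl/fl cells (log2 difference -1.41, adjusted p = 0.00146). In the second experiment Bmf was higher in Prd/fl (36.2 TPM) than in fl/fl progenitors (13.9 TPM), by 1.37 on the log2 scale (adjusted p = 0.00895). Of 13 apoptosome and caspase genes, 9 of 78 tests in the hemizygous set were called, 7 of them higher, among them Casp8, the initiator caspase of death receptors, at 129.6 TPM in fl/fl against 75.3 TPM in Pax5 +/+ cells (log2 difference 0.84, adjusted p = 0.0121). Of 7 p53 pathway genes 2 of 42 tests were called there. Of 10 genes from the IL-7 receptor to the Bcl2 family 9 of 60 were called. Il7r averaged 365 TPM in ∆CRD1/- against 172 TPM in Pax5 +/+ cells (log2 difference 1.72 with the read length term, which sets ∆CRD1/- against Pax5 +/+ samples of its own read length, adjusted p = 0.00632), and Foxo1, a transcription factor known to act on Il7r, 94.9 TPM in fl/fl against 205 TPM (log2 difference -1.30, adjusted p = 0.000305). In the central domain deletions limma called 0 of 21, 39, 18 and 30 tests in the 4 lists in this order, with 4, 5, 4 and 11 at an unadjusted p under 0.05. There edgeR called 1 test, in the IL-7 receptor list, and DESeq2 called 1, 2, 1 and 2.

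The genes whose group means ran most like those of Bcl2l1 across the 11 genotypes of the first experiment, among 10935 genes, were Phlpp1 (Pearson r = 0.987), Gpd1l (r = 0.984) and Mical3 (r = 0.983). These values describe 11 points that share read length and gate, with no test. Mical3 averaged 19.3 TPM in Pax5 +/+, 5.79 in ∆CRD1/-, 2.74 in ∆CRD1,2/- and 2.72 in fl/fl cells, and Gpd1l 261, 143, 89.1 and 71.4 TPM in the same groups.

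In the T lineage the same genes moved at other steps. Of 54 tests of members over the 5 steps from LMPP to DN3b and the Rag2-/- contrast, 22 were called, 10 higher and 12 lower. TPM sets levels relative to each sample's total, and the median of all genes moved by -0.05, -0.18, 0.08, 0.27, -0.41 and -0.18 on the log2 scale in the 5 steps and the Rag2-/- contrast. Differences of the members are to be read against these shifts.

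Bcl2 rose 3.67-fold at the step from DN2a to DN2b and fell 3.997-fold from DN3a to DN3b. It was 27.3 and 38.1 TPM in LMPP and 9.55, 11.5 and 13.6 TPM in DN1 cells. It was 17.2, 30.1 and 15.9 TPM in DN2a, 74.1, 98.1 and 56.7 TPM in DN2b, 76.0 and 70.3 TPM in DN3a, and 19.6 and 16.9 TPM in DN3b cells. The samples of neighbouring stages did not overlap except between DN2b and DN3a. All 4 steps without overlap were called, at -1.49 from LMPP to DN1 (adjusted p = 0.00122), 0.82 from DN1 to DN2a (adjusted p = 0.0200), 1.88 from DN2a to DN2b (adjusted p = 8.78e-05) and -1.999 from DN3a to DN3b (adjusted p = 7.51e-05). The step from DN1 to DN2a lost its call without DN1 replicate 2 (the first of 2 samples with that number) or DN2a replicate 2 (adjusted p up to 0.0773). Bcl2 made up 29.5% of the pro-survival pool in DN2b and 6.17% in DN1 cells, against 1.22% in Pax5 +/+ pro-B cells, which were processed separately.

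Mcl1 reached 231.36 and 228.83 TPM in DN3a cells, above DN2b (94.31 to 115.27 TPM) and DN3b (75.40 and 87.00 TPM). It rose by 1.13 on the log2 scale into DN3a (adjusted p = 6.65e-06) and fell by 1.51 into DN3b (adjusted p = 5.89e-07). A smaller decrease from DN1 (114.96 to 127.78 TPM) to DN2a (94.45 to 105.11 TPM) was called at -0.31 (adjusted p = 0.0384), and rescaling by the median ratio ended that call at -0.15 (adjusted p = 0.220). Bcl2l1 varied less than in pro-B cells. It was 30.9 and 39.8 TPM in LMPP, 47.4 to 57.9 in DN1, 41.9 to 63.7 in DN2a, 58.5 to 90.2 in DN2b, 49.5 and 47.8 in DN3a and 43.8 and 36.5 in DN3b cells. Its only called step was the fall of 0.57 from DN2b to DN3a (adjusted p = 0.0298), which leaving out either DN3a sample or 1 of 2 DN2b samples ended (adjusted p up to 0.136). Bcl2a1b did not pass the filter on low values, at 0 to 0.930 TPM.

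**Figure D4:**
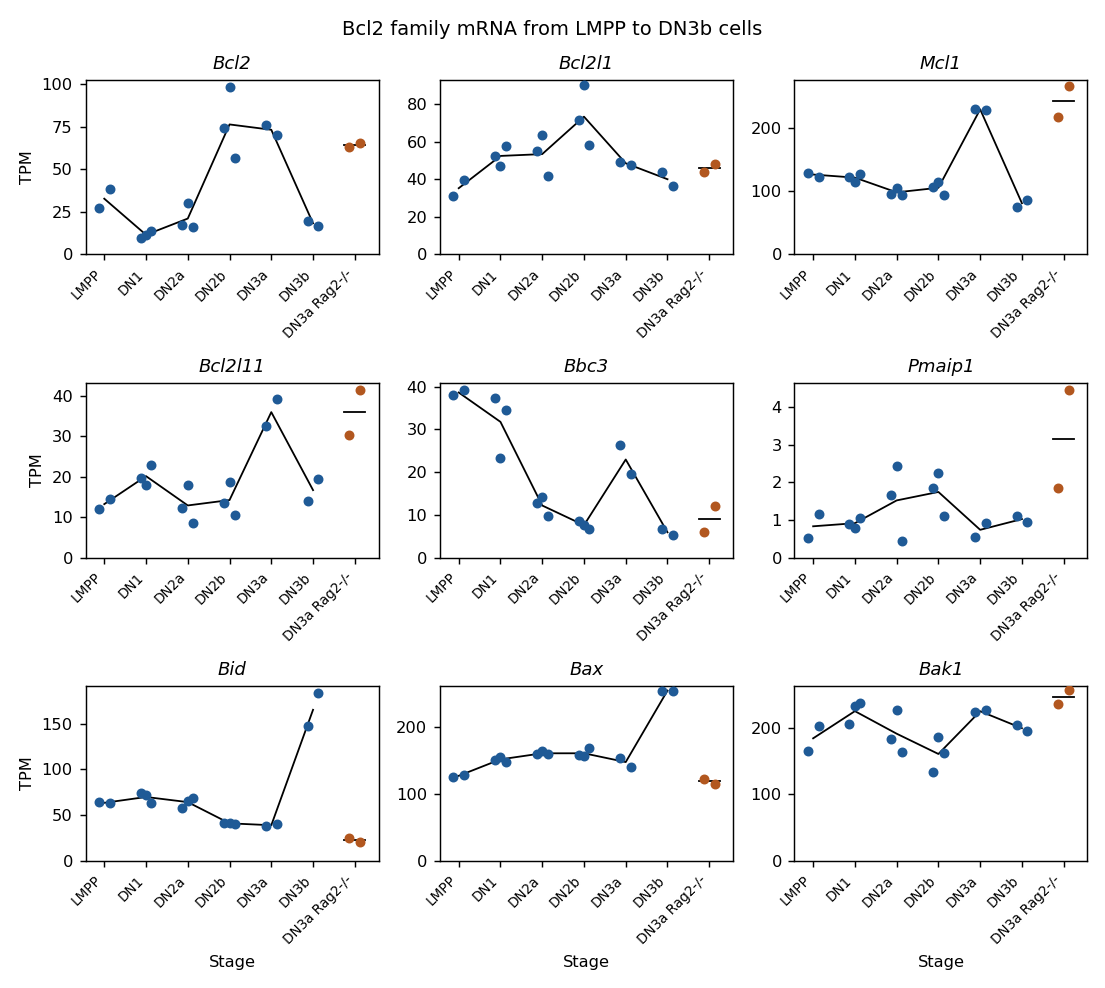
TPM of the genes (1 panel each, vertical axes linear from 0) in LMPP, DN1, DN2a, DN2b, DN3a, DN3b and Rag2-/- DN3a cells (horizontal axes). Points are samples, the line joins the means of the wild-type stages and the short bar is the mean of the Rag2-/- samples. Among the wild-type stages Bcl2 peaks in DN2b and DN3a cells at 56.7 to 98.1 TPM, Mcl1 in DN3a at 231.36 TPM and Bid in DN3b at 183.25 TPM.

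At the step from DN1 to DN2a Bbc3 fell by 1.37 (adjusted p = 0.00121), from 23.3 to 37.3 TPM in DN1 to 9.66 to 14.2 TPM in DN2a cells. The summed granulocyte and macrophage markers had a median of 1705 TPM in LMPP, 1795 TPM in DN1, 502 TPM in DN2a, 65.4 TPM in DN2b and 51.5 TPM in DN3a samples, and their part was not tested. From DN2b to DN3a Bbc3 rose by 1.58 (adjusted p = 0.000551), from 6.61 to 8.59 TPM to 26.3 and 19.6 TPM. Bcl2l11 rose at the same step by 1.37 (adjusted p = 0.00212), from 10.57, 13.38 and 18.64 TPM to 32.60 and 39.25 TPM. Among wild-type stages Bcl2l11 and Mcl1 had their highest means in DN3a cells, while Bbc3, at a mean of 22.9 TPM there, was higher in LMPP, at 38.07 and 39.20 TPM, and in DN1 cells, at a mean of 31.8 TPM. From DN3a to DN3b, when cells that have made a pre-T cell receptor start to divide, Bbc3 fell by 1.93 (adjusted p = 0.000138) to 6.63 and 5.19 TPM and Bcl2l11 by 1.12 (adjusted p = 0.00975) to 13.96 and 19.34 TPM. The Bcl2l11 fall lost its call without DN3a replicate 2 or DN3b replicate 1 (adjusted p up to 0.0912).

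Bid ran opposite to Bbc3 and Bcl2l11 at the last step. It was 58.14 to 69.00 TPM in DN2a cells and 39.87 to 41.73 TPM in DN2b cells, a fall of 0.64 (adjusted p = 0.00106). From 37.88 and 39.63 TPM in DN3a it rose to 147.21 and 183.25 TPM in DN3b cells, 4.23-fold higher (log2 difference 2.08, adjusted p = 5.90e-08). Bax rose at that step too, from 154 and 140.4 TPM to 254 TPM in both samples (log2 difference 0.79, adjusted p = 8.18e-06). The summed level of Bcl2l11, Bbc3, Pmaip1 and Bid was 98.4 TPM in DN3a and 189 TPM in DN3b cells while the pro-survival sum was 352 and 139.7 TPM. The rise of the first sum was that of Bid, since Bbc3 and Bcl2l11 fell. Further BH3-only genes are not in that sum, among them Bmf, which was called lower at this step. The sum is therefore not the total BH3-only level. Bax also passed from LMPP to DN1 at 0.26 (adjusted p = 0.0456), a call lost in 15 of 27 alternatives. Bak1 rose from 134 to 186 TPM in DN2b to 223 and 227 TPM in DN3a cells (log2 difference 0.50, adjusted p = 0.0175), and rescaling by the median ratio left 0.22 (adjusted p = 0.157).

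Read against all genes, 2 of 9 members (22.2%) were called from LMPP to DN1, where 18.6% of all genes were. The counts were 3 (33.3%) from DN1 to DN2a against 33.7% of all genes, 2 (22.2%) from DN2a to DN2b against 18.2%, 5 (55.6%) from DN2b to DN3a against 45.8%, and 6 (66.7%) from DN3a to DN3b against 53.4%. The shares of members called were near those of all genes at these steps.

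In DN3a cells labelled Rag2-/-, 4 of 9 members were called against wild-type DN3a cells, where 26.4% of all genes were. Bid was lower, with 24.80 and 20.57 TPM (log2 difference -0.78, adjusted p = 0.00143), and so was Bbc3, with 6.05 and 12.1 TPM (log2 difference -1.40, adjusted p = 0.00521). Bbc3 lost its call without wild-type replicate 1 or Rag2-/- replicate 1 (adjusted p up to 0.0726). Bax was 122 and 115 TPM (log2 difference -0.31, adjusted p = 0.0227), and after rescaling the difference was -0.13 (adjusted p = 0.503). Pmaip1 was higher, at 1.85 and 4.44 TPM against 0.556 and 0.917 TPM (log2 difference 1.86, adjusted p = 0.0414), a call at very low levels that 10 of 26 alternatives ended. Bcl2, at 63.1 and 65.3 TPM, and Mcl1, at 218.14 and 267.46 TPM, were not called.

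The other lists changed most at the last steps. From DN2b to DN3a, where 45.8% of all genes were called, 5 of 6 tested p53 pathway genes rose (Ccng1, Cdkn1a, Mdm2, Mdm4 and Trp53inp1, targets and regulators of p53), and from DN3a to DN3b, where 53.4% of all genes were called, the same 5 fell. Cdkn1a, an inhibitor of the cell cycle, averaged 68.2 TPM in DN2b, 194 TPM in DN3a and 20.4 TPM in DN3b cells. All 8 tested genes from the IL-7 receptor to the Bcl2 family fell from DN3a to DN3b, with Il7r at 82.6 and 31.7 TPM. Bmf rose from 8.20 TPM in DN2b to 92.7 TPM in DN3a and fell to 5.66 TPM in DN3b cells (adjusted p = 8.85e-09 and 2.60e-09), and in Rag2-/- DN3a cells it averaged 171 TPM (adjusted p = 0.00303). The medians of the p53 list were 1.05 and -1.32 at the 2 steps, and that of the IL-7 receptor list was -1.17 at the second, beside 0.27 and -0.41 over all genes.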

How the data were processed

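The authors trimmed RNA-seq reads to 50 nt, aligned them to the GRCm38/mm10 mouse genome with STAR (2.4.2a), counted them over RefSeq genes with Rsubread and deposited TPM. For the lymphoid set the authors deposited 2 TPM values a gene on mm9 after TopHat (1.4.1); how these differ is not stated, and their mean was used, with an entry of exactly 1 read as 0. The mm10 tables of 8 samples held no gene names and took the row order of a named table. Deposited raw counts of Pax5 +/+ replicate 3 and Vav-Cre Pax5 fl/+ replicate 1 gave gene lengths. With these, TPM could be turned back into whole reads (100% whole within 0.05 reads), used only for edgeR (4.0.16) and DESeq2 (1.42.0) as alternatives.

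A gene was tested if any sample of a fit exceeded 1 TPM. The test was limma (3.58.1, R 4.3.3, lmFit and eBayes with trend, two-sided, Python 3.11.15 for the rest) on log2(TPM + 0.1), which understates changes of low genes. Separate fits held the central domain deletions (8 samples), hemizygous and fl/fl cells (13), homozygous cells and allele dose (17), the second experiment (6) and the lymphoid stages (17). Read length as sequenced, before the trimming, separates sets of libraries and was a term in the hemizygous and homozygous fits. Samples were grouped by their labels; nothing says that replicates came from separate mice, so p-values measure the spread between samples, and no replicate pair agreed within sampling noise (lowest chi-square per degree of freedom 5.32). The members, the 4 other gene lists and the tests were chosen with earlier results of these data known. Members and list genes were named where called or where a list fixed them, and the 3 genes of highest Pearson r over group means were named as most like Bcl2l1. Alternatives were the pseudocount (0.01 or 1), no filter, no trend, rescaling, the replicate block, read length and leaving out each sample. The limma, edgeR and DESeq2 tests were run on simulated data for the last contrast of each fit, with limma alone for the lymphoid stages. The other steps were not simulated. Columns of samples outside the series numbered 0. One surface marker of the sort and its mRNA are not reported here.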

Additional observations from a re-analysis of the deposited data

Results flagged for a closer look

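Bcl2 in Pax5 +/+ replicate 3 stood apart from the other samples of its group, at 2.97 TPM against 4.15 to 4.58 TPM in the other 4. Its distance to the nearest sample, divided by the range of the group, was above the 95% critical value of Dixon's test for 5 samples (0.71). In this way 10 genes were examined in the 1 group large enough, where chance marks about 1 in 20. The value rests on 271 recovered reads, against 318 to 460 in the other 4 samples.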

How the results depend on the processing

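No call changed sign under any alternative. Over the single genes called, 807 recomputed values kept their call and 104 lost it. The counts of called members, beside their ranges when 1 sample was left out, were 0 (0 to 0) for the central domain deletions, 6 (4 to 7) for the hemizygous and fl/fl set, 4 (1 to 5) for the homozygous set, 5 (2 to 7) for the second experiment and 22 (17 to 25) for the lymphoid stages. DESeq2 gave 2 for the central domain deletions and 8 for the second experiment, and the homozygous set gave 2 without the filter on low values and 2 without the trend. The homozygous count was 1 without either ∆CRD1/∆CRD1 or either ∆CRD1,2/∆CRD1,2 sample, and 2 without Pax5 +/+ replicate 1 or 2 or without either ∆CRD1/- sample. The count of the second experiment was 2 without either fl/+ sample and 3 without fl/fl replicate 1. The cause of these moves was not tested, except that leaving out a sample leaves fewer samples. Replicate numbers did not pair the samples, since the deviations of same-numbered samples correlated above 0.1 in 0 of 6 pairs in the central domain set, 3 of 20 in the hemizygous, 7 of 42 in the homozygous, 0 of 6 in the second experiment and 3 of 61 in the stages. A replicate block gave 5 calls against 4 over the 2 hemizygous contrasts it could fit, 2 against 2 over 3 homozygous contrasts, 5 against 5 in the second experiment and 20 against 22 in the stages. No paired analysis was possible because of unshared numbers for the central domain deletions, where the Pax5 +/+ samples are replicates 3 and 4 and the mutants 1 and 2. Counts of the 4 other lists stayed within 1.5 times in 371 recomputations and moved further in 65, lower in 42 and higher in 23. Depth limits Pmaip1 and Bcl2a1b, which lay at or near 1 TPM.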
